A study of Mus musculus with 6 samples.

Results

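Cdr1, C230004F18Rik, Malat1, Neat1, Miat, Snhg11, Gas5 and Rmst are 8 RNAs of the brain that act, as far as they are known, mostly without being translated. They were taken by name from 25239 genes counted in mouse hippocampus, and Cdr1 was included because it had the largest fall among the genes called lower in Ube3am-/p+ mice. The RNAs were therefore chosen by their difference in CPM between genotypes in these 6 libraries, and the levels and fold changes of these 8 RNAs are given as a description, with no test. The counts list C230004F18Rik under the symbol Cdr1os, which RefSeq gives as the same gene. In the 3 Ube3am-/p+ mice, Cdr1 was at 0.461 of its WT level and Neat1 at 1.56 times its WT level, while the other 6 RNAs lay between 0.694 and 1.17 times their WT levels.

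RNA was sequenced from hippocampal tissue of 3 WT (Ube3am+/p+) and 3 Ube3am-/p+ male mice of strain C57BL/6, aged 6 to 8 weeks. Each mouse gave 1 library. Ube3am-/p+ mice lack the maternal copy of Ube3a, which encodes a ubiquitin ligase, and keep the paternal copy. In neurons the paternal copy is silenced by an antisense transcript, and loss of the maternal copy models Angelman syndrome. The labels name no treatment in either group and no promoter or Cre line that would limit the deletion to a cell type, and they do not say which part of Ube3a is deleted.

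Cdr1 is an unusual gene because most RNA of its locus comes from the opposite strand, as a circle named Cdr1as (also ciRS-7). Cdr1as is abundant in neurons, carries a long array of sites for the microRNA miR-7, and is cut when miR-671 pairs with it. Malat1 and Neat1 stay in the nucleus, Malat1 in nuclear speckles that hold splicing factors and Neat1 as the scaffold of paraspeckles. Miat (Gomafu) forms a nuclear compartment of its own and binds splicing factors through a short repeated motif. Snhg11 and Gas5 belong to the small nucleolar RNA host genes, Gas5 being spliced around many such RNAs in its introns, and Rmst is known from the midbrain and as a partner of Sox2.

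The microRNAs that meet Cdr1as share most of their seed. The mature sequences are shown as RefSeq gives them on GRCm38.p6, with the seed (bases 2 to 8) in capitals, because the sites below are read against it.
mmu-miR-7a-5p: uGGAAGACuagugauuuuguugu
mmu-miR-7b-5p: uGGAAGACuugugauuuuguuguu
mmu-miR-671-5p: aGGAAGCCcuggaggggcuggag
miR-7a-5p and miR-7b-5p have the same seed, and that of miR-671-5p differs from it.

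The Cdr1as exon lies at chrX:61183248-61186174 on the forward strand (GRCm38, GENCODE M21), and its 2927 bp hold 123 copies of GTCTTCC, the complement of the miR-7 seed. Of 122 distances from the start of 1 copy to the next, 86 were 18 bp. The exon holds 1 copy of the miR-671 seed match. In the sequences, read from the GENCODE transcript, the seed match is in capitals. They are the first site of the exon, the first site inside the GENCODE exon of Cdr1, the site that occurs 19 times in the same letters, and the miR-671 site.
Cdr1as at chrX:61183258-61183280: ggtgccagtaccaagGTCTTCCa
Cdr1as at chrX:61183995-61184017: ttccaggaaatcaacGTCTTCCc
Cdr1as at chrX:61184356-61184378: ttcccgaaaatccaaGTCTTCCc
Cdr1as at chrX:61186029-61186051: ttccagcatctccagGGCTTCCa
The miR-671 site pairs with miR-671-5p at 19 of its 23 bases without a gap, against 13 bases for the repeated miR-7 site with miR-7a-5p. Among 20657 genes with a transcript of at least 1000 bp, 28.0% held GTCTTCC at least once on the transcribed strand, 4 held it 10 times or more, and the most outside the Cdr1 locus was 11. In GENCODE, Cdr1 itself occupies 1554 bp of the exon on the other strand (chrX:61184005-61185558). It shares 79 of the 123 sites with the Cdr1as exon in mirror image, and its own strand holds 0. RefSeq gives Cdr1 a longer span, chrX:61183246-61185558, which starts just before the Cdr1as exon. With a match to only 6 bases of the seed (TCTTCC) the exon held 139 sites.

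**Figure D1:**
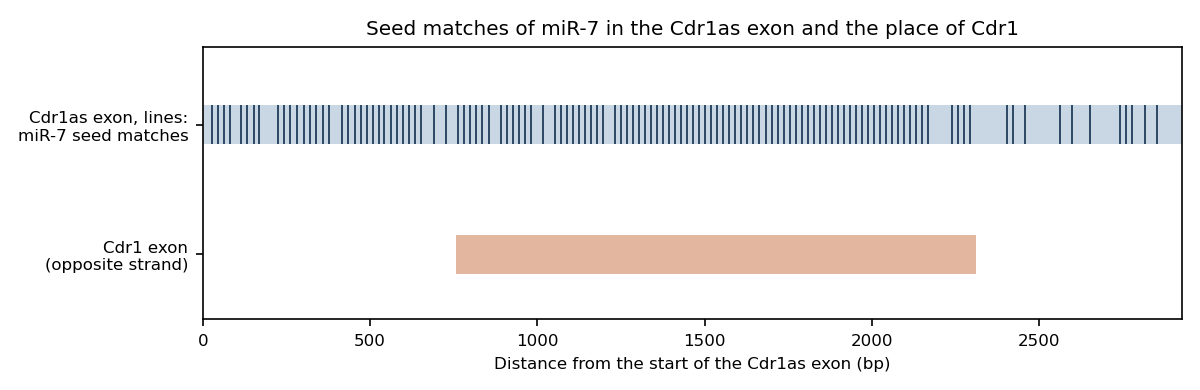
Map of the Cdr1as exon, with distance from its start in bp on the horizontal axis. Vertical lines mark the 123 seed matches of miR-7. The lower bar marks the GENCODE exon of Cdr1 on the opposite strand, over which 79 of the matches lie. The lines stand at an even spacing, most often 18 bp, over most of the exon.

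The other lncRNA of the miR-7 network is Cyrano (Oip5os1), which directs the decay of miR-7 through a site with extended pairing. Its transcript of 8300 bp on chromosome 2 holds 2 seed matches, both shown with the match in capitals.
Cyrano at chr2:119599946-119599971: tcaggttttttttttaatGTCTTCCa
Cyrano at chr2:119602136-119602161: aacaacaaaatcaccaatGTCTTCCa
Miat is known for repeats of ACTAAC, a sequence like the branch point of introns that splicing factor 1 binds, and its 8758 bp transcript held 11 of them. At least 1 copy was found in 29.97% of the same genes, and 0.213% held copies at the density of Miat or above. The stretch shown has a pair of them in capitals, on the reverse strand of chromosome 5.
Miat at chr5:112216777-112216806: gtgctACTAACccggccctACTAACtggtt

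Each library had 7293272 to 11314409 counts on genes. Ube3a, the targeted gene, had 104, 141 and 151 counts per 1000000 counts on genes (CPM) in WT mice 1, 2 and 3, against 96.8, 82.9 and 80.6 in Ube3am-/p+ mice, so all Ube3am-/p+ mice lay below all WT mice (log2 fold change -0.58 ± 0.12 SE, edgeR quasi-likelihood adjusted p = 0.0363; exact permutation p = 0.10, two-sided, the smallest that 3 against 3 mice allow). Reads of the paternal copy and of its antisense transcript cannot be told apart from those of the maternal copy. Of 14445 genes tested, 290 were called by an adjusted p under 0.05 with a fold above 1.2, which is 2.01%. The first principal component held 42.4% of the variance and placed mouse 1 of each genotype between the other mice of both. Along it the libraries also differed in GC content. The rank correlation, across 14328 genes, of a gene's deviation in a library with its GC was 0.05, -0.51 and -0.57 in WT mice 1, 2 and 3, against 0.06, 0.53 and 0.53 in Ube3am-/p+ mice. A fit corrected for GC and transcript length called 94 genes, left Ube3a at -0.20 (adjusted p = 0.241), and is given beside each of the 8 RNAs below. The count of calls was 2582 without WT mouse 1, 1816 without Ube3am-/p+ mouse 1, 2 without Ube3am-/p+ mouse 3 and 0 without WT mouse 2, WT mouse 3 or Ube3am-/p+ mouse 2, where 2075, 2159 and 2128 genes had an unadjusted p below 0.05. Ube3a was no longer called without mouse 2 or mouse 3 of either genotype (-0.54 to -0.48).

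All 8 RNAs passed the filter on low counts. Per kb of transcript, Snhg11 was the most abundant in WT mice, at 407 ± 27.9 CPM per kb (SD, n = 3). Miat followed at 102 ± 15.4 and Malat1 at 84.5 ± 4.31, the lowest Miat library standing just above the highest Malat1 library. Gas5 had 25.3 ± 1.88 CPM per kb. C230004F18Rik at 8.47 ± 2.27, Cdr1 at 7.97 ± 1.79 and Neat1 at 6.23 ± 0.811 CPM per kb overlapped one another in WT mice, and Rmst was the lowest at 0.482 ± 0.111. These levels depend on the transcript taken for length. For Neat1 it was the long isoform of 20771 bp, although reads of its short isoform are counted with it. With a shorter length Neat1 would stand higher per kb, so its place beside Cdr1 and C230004F18Rik depends on this choice. For Cdr1 the length was the GENCODE exon of 1554 bp, shorter than its RefSeq span, and for C230004F18Rik it was 864 bp. With its longest GENCODE transcript, of 19658 bp, C230004F18Rik would be at 0.372 ± 0.100 CPM per kb, below the mean of Rmst but overlapping it, and below every WT library of Cdr1 and Neat1.

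Of the 8 RNAs, 4 were lower and 4 higher in Ube3am-/p+ mice, with a median log2 fold change of -0.08 beside 0.00 over all genes tested. The rule above called 2 of the 8, Cdr1 and Neat1, beside 2.01% of all genes, and the genotypes did not overlap in CPM for 4 of the 8 (Cdr1, Malat1, Neat1 and Snhg11), beside 25.0% of all genes. For the lists below, counts at an unadjusted p below 0.05 stand beside 24.6% of all genes, and counts of calls by DESeq2 beside 6.58%. Since the genotype difference was used to choose these RNAs, nothing is read from either count. Both calls were lost without mouse 2 or mouse 3 of either genotype, and with the correction for GC and length.

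**Figure D2:**
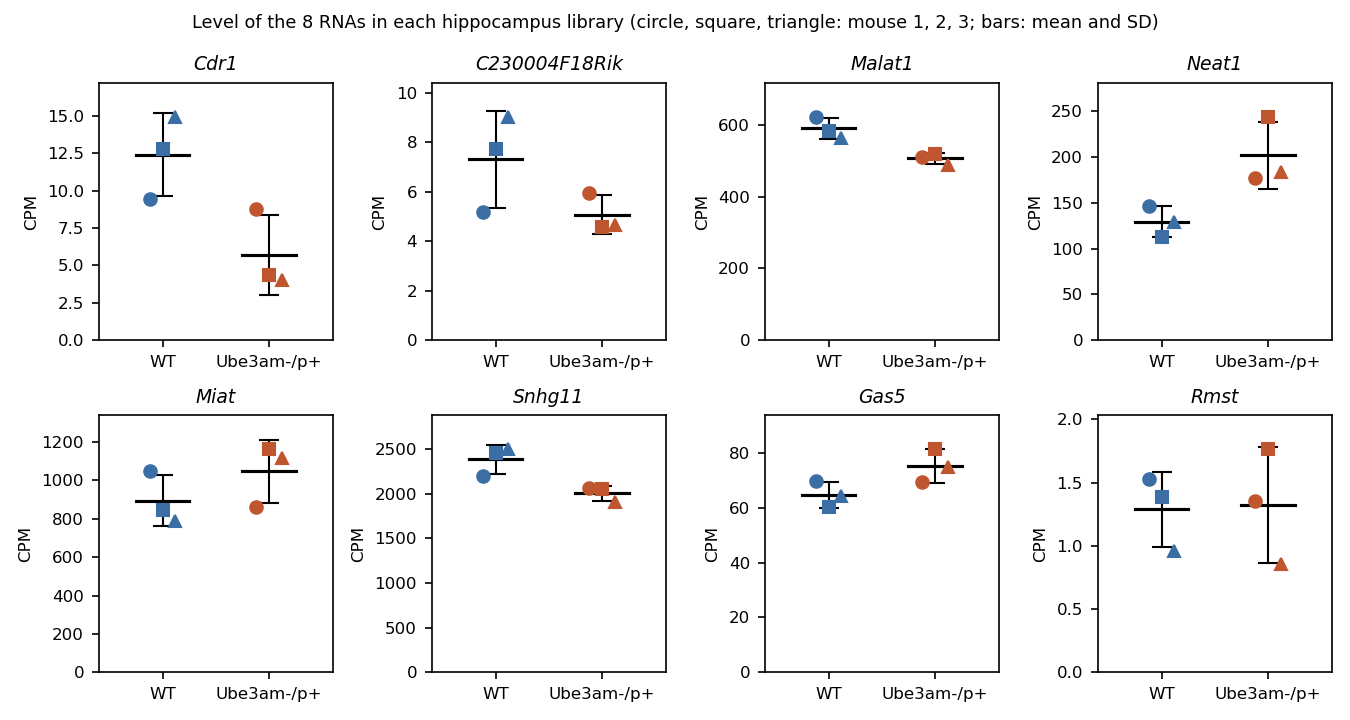
Level of each RNA in CPM (vertical axis from 0) in 3 WT and 3 Ube3am-/p+ mice, with the mouse number as the symbol and the mean and SD as bars. Cdr1 stood at 8.79 CPM or below in Ube3am-/p+ mice and at 9.42 or above in WT mice, and Neat1 at 177 or above against 147 or below.

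Cdr1, named for an antigen of paraneoplastic cerebellar degeneration, was read 80, 111 and 109 times in WT mice 1, 2 and 3, against 78, 49 and 42 times in Ube3am-/p+ mice 1, 2 and 3. In CPM these were 9.42, 12.8 and 14.9 against 8.79, 4.33 and 3.99. Every Ube3am-/p+ mouse lay below every WT mouse, but mouse 1 of each genotype stood close together, and the low values came from Ube3am-/p+ mice 2 and 3. The 95% Poisson intervals of the counts, which cover counting error only, were 61.7 to 97.3 in Ube3am-/p+ mouse 1, 36.3 to 64.8 in mouse 2 and 30.3 to 56.8 in mouse 3. The mean was 12.4 ± 2.78 CPM in WT and 5.71 ± 2.68 in Ube3am-/p+ mice (SD, n = 3), with a log2 fold change of -1.12 ± 0.27 (SE). It was -1.05 ± 0.25 after correction for GC and length, -1.15 with the mouse number as a block, and -1.54 to -0.93 when each mouse was left out in turn. In whole tissue, fewer cells that make an RNA and less of it per cell cannot be told apart.

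These counts cannot be given to 1 strand. The Cdr1as exon covers the whole GENCODE exon of Cdr1 and belongs to C230004F18Rik in GENCODE. In RefSeq it lies beyond the end of C230004F18Rik, and Cdr1 spans chrX:61183246-61185558. Which annotation was counted, and whether the counting used strand, is not given in the sources used here. Among 15 other genes covered by at least 90% by an opposite gene with at least 50 counts per kb, all 15 had counts, at a median of 0.823 times the counts per kb of the covering gene (interquartile range 0.490 to 1.81). Without that minimum on the covering gene there were 22 such genes with a median of 1.81. C230004F18Rik, at 13.8 counts per kb of its GENCODE exons, would not pass the minimum, and Cdr1 was at 21.9. That value depends on the length taken for C230004F18Rik. Over its transcript of 864 bp, C230004F18Rik was at 8.47 CPM per kb in WT mice, beside 7.97 for Cdr1. Ambiguous reads made up 0.297% to 0.383% of a library. Reads of Cdr1 and of Cdr1as therefore cannot be told apart, and the value of Cdr1 is that of the locus between the ends of the exon that was counted. Of windows of 50 bases in the GENCODE exon of Cdr1, 72.6% occur once in it, and of windows of 100 bases 92.4%.

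C230004F18Rik is the long RNA whose promoter lies upstream of the circle on the forward strand, in RefSeq at chrX:61116378-61139460. Its counts were 44, 67 and 66 for the WT mice against 53, 52 and 49 for the Ube3am-/p+ mice, or 5.18, 7.72 and 9.05 against 5.97, 4.60 and 4.66 CPM. The genotypes overlapped, because WT mouse 1 was below Ube3am-/p+ mouse 1. The log2 fold change was -0.51 ± 0.23, and -0.08 ± 0.22 after the correction for GC and length or -0.32 ± 0.22 with the shorter transcript that GENCODE links to RefSeq. It ranged from -0.71 (without WT mouse 1) to -0.34 (without WT mouse 3) when each mouse was left out. Cdr1 counts were 1.82, 1.66 and 1.65 times those of C230004F18Rik in WT mice, against 1.47, 0.942 and 0.857 times in Ube3am-/p+ mice. This ratio does not depend on library size. The genotypes did not overlap in it, but Cdr1 was chosen for its fall and the counts are small, so nothing is read from that.

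C030023E24Rik, a noncoding gene at chrX:61191293-61194165, lies 5.74 kb beyond Cdr1 and was looked at after its values were seen. It had 27.7, 36.5 and 39.5 CPM in WT mice, against 23.2, 17.9 and 20.1 in Ube3am-/p+ mice, without overlap (log2 fold change -0.74 ± 0.14, edgeR adjusted p = 0.0362, DESeq2 adjusted p = 0.00177, and 0.000727 to 0.251 over the alternatives run). It was no longer called without mouse 2 or mouse 3 of either genotype. No GENCODE transcript carried its symbol, so that it was not part of the correction for GC. On the far side of C230004F18Rik, Sox3 was at 2.31 ± 0.553 and 2.27 ± 0.273 CPM (log2 fold change -0.01 ± 0.32).

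Over the 6 libraries, the 5 genes whose centred log2 profile was nearest to that of Cdr1 were Ifit1bl1, Gm32810, Rsad2, Sycp3 and Lrrc19, at root mean square differences of 0.07 to 0.26 log2 units. They were found among 14416 genes and have 79 to 344 counts in all, so that counting error is large in each. C030023E24Rik ranked 39 and C230004F18Rik 175 in the same order, while the other 6 RNAs ranked from 2633 (Snhg11) to 13886 (Neat1). These profiles share libraries and depth, and likeness is a description.

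The neighbours Malat1 and Neat1 lie 22.04 kb apart on chromosome 19, and their values differed between genotypes in opposite directions. Malat1, among the most abundant nuclear RNAs of many cells, had 623, 582 and 565 CPM in WT mice, against 512, 520 and 489 in Ube3am-/p+ mice, without overlap. Its mean was 590 ± 30.1 against 507 ± 16.2 CPM, a log2 fold change of -0.20 ± 0.08. The sign of this small difference turned with the correction for GC and length, to 0.02 ± 0.08.

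Neat1, on which paraspeckles assemble, had 147, 113 and 129 CPM in WT mice, against 177, 244 and 183 in Ube3am-/p+ mice. All 3 Ube3am-/p+ mice lay above all WT mice, mouse 2 the highest. The mean was 129 ± 16.9 against 202 ± 36.9 CPM. Neat1 had a log2 fold change of 0.66 ± 0.12, or 0.74 ± 0.20 after the correction for GC and length, and 0.51 to 0.76 when each mouse was left out. Neat1 counts were 0.235, 0.194 and 0.228 times those of Malat1 in WT mice, against 0.347, 0.469 and 0.375 times in Ube3am-/p+ mice, again without overlap. As both RNAs were chosen with the genotype difference known, nothing is read from this ratio. Reads of the short and the long isoform of Neat1 are summed in this table.

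Beside the scaffold, 14 genes of paraspeckle proteins were tested and 0 were called by edgeR, with a median log2 fold change of 0.02. At an unadjusted p below 0.05, 2 were higher and 1 lower, and DESeq2 called 1 higher and 1 lower, beside 6.58% of all genes, Taf15 and Cpsf6 (both picked out by these values). The 3 with the most counts, the RNA-binding proteins Hnrnpk, Ewsr1 and Tardbp, had log2 fold changes of 0.00 ± 0.08, 0.12 ± 0.09 and -0.17 ± 0.08. Taf15, an RNA-binding protein, was at 51.0 ± 9.07 CPM in WT and 73.5 ± 16.99 in Ube3am-/p+ mice (0.55 ± 0.18, edgeR adjusted p = 0.105, DESeq2 adjusted p = 0.0237). After the correction for GC and length Taf15 was at 0.51 (edgeR adjusted p = 0.412). Cpsf6, of the cleavage factor that sets the end of the short Neat1 isoform, was at 140 ± 8.63 and 111 ± 8.95 CPM (-0.33 ± 0.09, edgeR adjusted p = 0.0591, DESeq2 adjusted p = 0.0261), and at 0.00 after the correction for GC and length.

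Miat, an RNA of neurons, had 1048, 847 and 791 CPM in WT mice, against 861, 1165 and 1114 in Ube3am-/p+ mice. Ube3am-/p+ mice 2 and 3 were above all WT mice, but mouse 1 was below WT mouse 1, so the genotypes overlapped. The log2 fold change was 0.24 ± 0.13, and 0.16 ± 0.13 after the correction for GC and length. It ranged from 0.16 (without WT mouse 3) to 0.38 (without Ube3am-/p+ mouse 1) when each mouse was left out. Rmst had only 7 to 20 counts per library, at 1.29 ± 0.297 CPM in WT and 1.33 ± 0.457 in Ube3am-/p+ mice. Its log2 fold change was 0.05 ± 0.42, and 0.24 ± 0.43 after the same correction. It turned to -0.12 without WT mouse 3 and to -0.23 without Ube3am-/p+ mouse 2.

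A list of 13 genes held proteins of nuclear speckles, an enzyme that processes Malat1, partners of Miat and Rmst, and the glucocorticoid receptor for Gas5. Of these, 12 were tested and 0 were called by edgeR, with a median log2 fold change of -0.08. At an unadjusted p below 0.05, 1 was higher and 1 was lower, and DESeq2 called 1, Sox2, again beside 6.58% of all genes. The 3 with the most counts were Srrm2 and Son, which hold the speckle together, and Celf1, which binds Miat, at -0.08 ± 0.10, -0.29 ± 0.10 and -0.15 ± 0.08. Sox2, the transcription factor that Rmst binds, was at 35.9 ± 4.62 and 46.6 ± 3.88 CPM (0.40 ± 0.12, edgeR adjusted p = 0.0649, DESeq2 adjusted p = 0.0460) and was named after its values were seen. After the correction for GC and length Sox2 was at 0.34 (edgeR adjusted p = 0.0875).

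Snhg11, the RNA with the most counts of the 8, had 2197, 2455 and 2501 CPM in WT mice, against 2062, 2048 and 1910 in Ube3am-/p+ mice. All Ube3am-/p+ mice lay below all WT mice, by little in mouse 1. The mean was 2385 ± 164 against 2006 ± 83.9 CPM, a log2 fold change of -0.23 ± 0.08, and -0.08 ± 0.07 remained after the correction for GC and length. Gas5, which accumulates when cells stop growing, had 69.7, 60.2 and 64.2 CPM in WT mice, against 69.3, 81.4 and 74.6 in Ube3am-/p+ mice. Only Ube3am-/p+ mouse 1 lay within the WT range. The log2 fold change of Gas5 was 0.23 ± 0.10, and 0.41 ± 0.10 after the same correction.

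**Figure D3:**
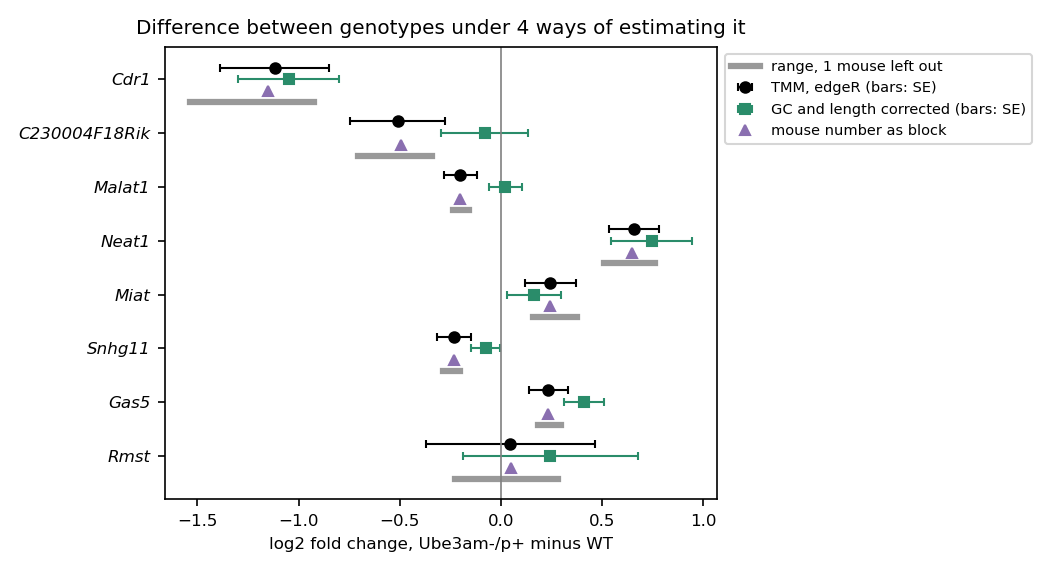
log2 fold change of each RNA, Ube3am-/p+ minus WT, from the TMM-scaled fit, with correction for GC and transcript length, with the mouse number as a block, and as the range over fits without 1 mouse; bars on the first and second are SE. Cdr1 stayed at -0.93 or below and Neat1 at 0.51 or above in each, while Malat1 moved to 0.02 and C230004F18Rik to -0.08 with the correction.

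Other host genes of small nucleolar RNAs lay on both sides of 0, as Snhg11 and Gas5 did. Of 20 such genes, 19 were tested and 0 were called by edgeR or DESeq2, 12 with a positive and 7 with a negative log2 fold change and a median of 0.06. At an unadjusted p below 0.05, 3 were higher and 2 lower. Rack1 and Nop56, which are among those with the most counts and also encode proteins of the ribosome or of nucleolar particles, were at 0.06 ± 0.08 and -0.06 ± 0.09.

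The genes known to meet Cdr1as or miR-7 were tested by edgeR across all genes. Of 18, all were tested and 0 were called by edgeR or DESeq2, and the median log2 fold change was -0.01. At an unadjusted p below 0.05, 1 was higher and 2 were lower. Hnrnpk, whose gene holds a copy of the miR-7 precursor in an intron, was at 0.00 ± 0.08. Parp1, a reported target of miR-7, was at 0.07 ± 0.09. Cyrano varied from 15.6 to 23.2 CPM in WT mice and stood at 26.9, 21.7 and 7.51 in Ube3am-/p+ mice 1, 2 and 3, the last being the lowest of all libraries. Rows for miRNA precursors held 16 counts for Mir7-1, 1 for Mir7-2, 2 for Mir7b and 0 for Mir671 over all libraries, and mature miRNAs were not measured.

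Of 27 other lncRNAs of the brain, 22 were tested and 0 were called by edgeR, 7 with a positive and 15 with a negative log2 fold change and a median of -0.10, or -0.02 after the correction for GC and length. At an unadjusted p below 0.05, 1 was higher and 6 were lower, and DESeq2 called 2 as lower, Rian and Tug1, beside the same 6.58% of all genes. Meg3, the most abundant, was at 3762 ± 355 CPM in WT and 3874 ± 559 in Ube3am-/p+ mice (0.06 ± 0.10), and 2900097C17Rik (Norad, which binds Pumilio proteins) at 1136 ± 36.0 and 1248 ± 129 (0.15 ± 0.09). Rian, transcribed from the same imprinted region as Meg3, was at 595 ± 69.4 and 482 ± 27.8 CPM (-0.29 ± 0.09, edgeR adjusted p = 0.0866, DESeq2 adjusted p = 0.0460), and at 0.13 after the correction. Tug1, named after its values were seen, was at 128 ± 25.9 and 90.2 ± 8.05 CPM (-0.49 ± 0.13, edgeR adjusted p = 0.0552, DESeq2 adjusted p = 0.0137), and at -0.13 after the correction.

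A circle has no poly(A) tail. Of 17 genes whose RNAs were taken to lack one, 14 were listed, 5 of them with 0 counts in every library. The 12 that were not tested had at most 66 counts over all 6 libraries. The histone genes H1f2 and H2bc4 had 806 and 1823 counts, beside 469 for Cdr1. They were tested, had log2 fold changes of -0.36 ± 0.15 and -0.24 ± 0.11, and were not called by edgeR or DESeq2 (both had an unadjusted p below 0.05). Whether the RNAs counted for these histone genes lack a tail, and how far the libraries hold circles, was not tested. In the lists above the count of 0 by edgeR became 1 to 4 without WT mouse 1, where 17.6% of all genes were called, and 0 to 3 without Ube3am-/p+ mouse 1, where 12.5% were.

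**Figure D4:**
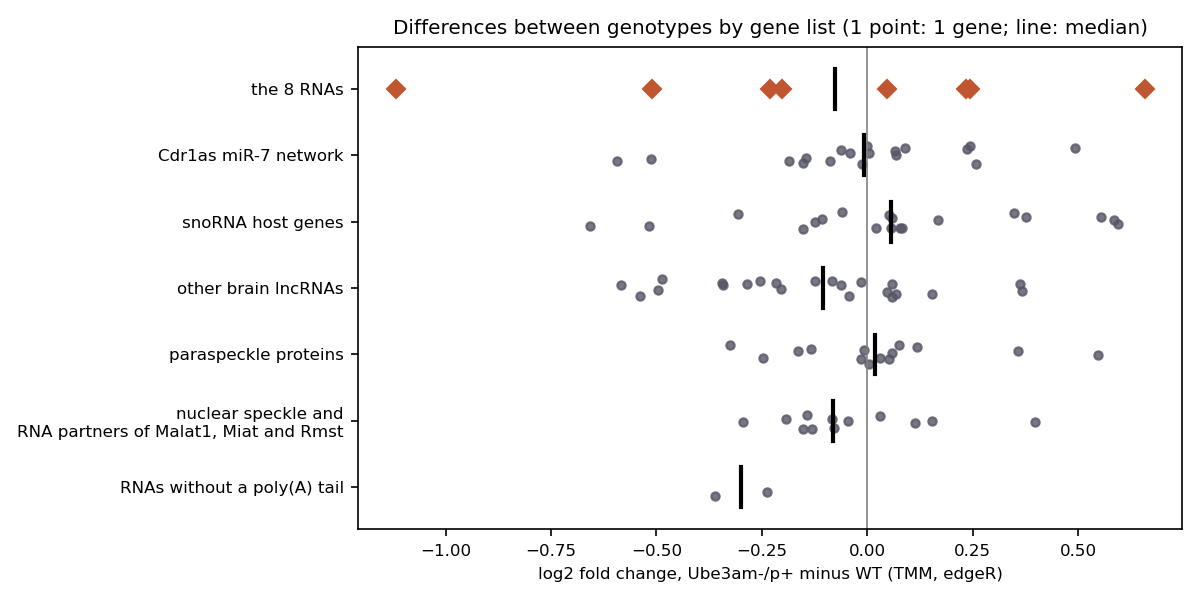
log2 fold change between genotypes (horizontal axis, Ube3am-/p+ minus WT) of the 8 RNAs and of the tested genes of each list, 1 point per gene, with the median as a line. The points of every list lie on both sides of 0 except the 2 genes of RNAs without a poly(A) tail. The values of the 8 RNAs, which were chosen by this difference, run from -1.12 for Cdr1 to 0.66 for Neat1.

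Markers of the hippocampus all had counts and summed to 982 to 1117 CPM in WT and 906 to 1037 in Ube3am-/p+ mice. Of 10 marker lists, 3 did not overlap between genotypes, beside 25.0% of single genes, so nothing is read from that count. Oligodendrocyte markers summed to 7954 to 8070 CPM in WT and 6641 to 7568 in Ube3am-/p+ mice, microglia markers to 338 to 385 and 301 to 332, and markers of thalamus and habenula to 89.1 to 98.4 and 105 to 124. Neuron markers were at 6863 to 7210 and 6534 to 6868, astrocyte markers at 2124 to 2158 and 2087 to 2160, and endothelial markers at 173 to 184 and 161 to 175. Choroid plexus markers ranged from 99.4 to 2170 CPM in WT and from 105 to 2260 in Ube3am-/p+ mice, and meninges markers from 90.5 to 150 and from 91.1 to 173. Of all the markers, only the collagen gene Col1a1 of the meninges list was called (0.73 ± 0.17, edgeR adjusted p = 0.0416), beside 2.01% of all genes. This call too was lost without mouse 2 or mouse 3 of either genotype. The blood list had 4 of its 5 genes, the globins, at 0 counts in every library. The part of these differences in the levels of the 8 RNAs was not tested.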

How the data were processed

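The authors deposited 1 table per mouse with raw counts, the whole numbers of reads per gene symbol, not normalized and with replicates not pooled. The submitters' processing notes name STAR 2.7.4a, HTSeq and mm10. The HTSeq version, the annotation and the strand setting are not given in the sources used here. The summary lines were left out. Reads that the counting placed outside every gene made up 54.1% to 55.0% of a library, and where they lie was not tested. Reads aligned to more than 1 place were given to no gene either. They made up 4.15%, 5.61% and 5.77% in WT mice, against 4.06%, 3.71% and 3.76% in Ube3am-/p+ mice.

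CPM was computed on the counts on genes. Counts were filtered with filterByExpr, scaled by TMM and tested with the robust quasi-likelihood F test of edgeR 4.0.16 (R 4.3.3), genotype being the only factor, with Benjamini-Hochberg adjustment over 14445 genes. A call needed an adjusted p below 0.05 and a fold above 1.2. The procedure was run on simulated counts with the same spread for all genes and no GC differences between libraries. That run therefore does not bear on how firm the calls in these libraries are. Alternatives were DESeq2 1.42.0, other scalings and filters, the mouse number as a block, splines of GC and log transcript length (5 degrees of freedom each), and each mouse left out. The correction with transcripts linked to RefSeq, and the opposite-strand count with no minimum on the covering gene, were chosen after seeing the data. The deviations of same-numbered mice from the mean of their genotype had correlations of -0.28, -0.18 and -0.31. Most libraries of the genotypes deviated in opposite directions with GC, so these correlations cannot tell whether the numbers mark pairs. The main fit did not take the numbers as pairs.

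The 8 RNAs and all lists were chosen with earlier results of these data known. The text names the 8 RNAs, Ube3a, called genes of each list or otherwise the 3 with the most counts, summed markers, the 5 profiles nearest to Cdr1 among tested genes with a mean of at least 1 CPM, and genes opposite a member. Some genes that this rule names are not reported here. Sequences and positions came from GENCODE M21 and RefSeq GRCm38.p6.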

Additional observations from a re-analysis of the deposited data

How the results depend on the processing

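The 290 genes called became 951 with DESeq2, 1176 without a filter, and 2832 at an unadjusted p below 0.05 with a fold above 1.2. They became 94 with the correction for GC and length, 17 with that correction and the replicate block, and 92 with transcripts linked to RefSeq. With the replicate block alone 0 were called. There 2422 genes had an unadjusted p below 0.05 at any fold, against 3560 without the block. Without 1 mouse the calls ranged from 0 to 2582. Cdr1 and Neat1 were among the calls by DESeq2 and without WT mouse 1 or Ube3am-/p+ mouse 1, Cdr1 was not with upper-quartile scaling, and both were not with the block, the correction, or without any of the other mice. Ube3a kept its sign but was no longer called with the replicate block (-0.57), the correction (-0.20, -0.19 with the block, -0.16 with transcripts linked to RefSeq), and without WT mouse 2 or 3 or Ube3am-/p+ mouse 2 or 3, in the range -0.73 to -0.48 over all mice left out. With the correction and with the correction and block, C230004F18Rik was at -0.080 and -0.067, Malat1 turned to 0.022 and 0.026 (0.034 with transcripts linked to RefSeq), Snhg11 was at -0.075 and -0.076 (-0.060), and Gas5 at 0.41 and 0.41 (0.44). Rmst turned to -0.12 without WT mouse 3 and to -0.23 without Ube3am-/p+ mouse 2, in a range of -0.23 to 0.28 over all mice left out, and with 10 counts required in every sample it gave no value. The block left the log2 fold change of each of the 8 RNAs within the spread between mice.

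For the lists, 0 calls became, without 1 mouse, 0 to 4 in the miR-7 network, 0 to 2 among snoRNA host genes, 0 to 4 among other lncRNAs, 0 to 3 among paraspeckle proteins, 0 to 2 among speckle and RNA partners, and 0 to 1 among RNAs without a tail, the calls arising without mouse 1 of either genotype. Of all genes, 17.6% were called without WT mouse 1 and 12.5% without Ube3am-/p+ mouse 1. At an unadjusted p with a fold above 1.2 the same lists had 2, 5, 6, 3, 2 and 1, beside 2832 of all 14445 genes. DESeq2 gave 2, 2 and 1 for other lncRNAs, paraspeckle proteins and partners, beside 6.58% of all genes. For the same 3 lists, no filter gave 2, 1 and 1, beside 1176 of 19291 genes. With no minimum on the covering gene the median ratio over opposite-strand genes was 1.81 in place of 0.823. The cause of these changes was not tested. Counts were lowest for Rmst, at most 20 in a library, and for Cdr1 and C230004F18Rik, at most 111.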
